A study of Mus musculus with 6 samples.

Results

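Stem and differentiating spermatogonia are held in a niche of somatic cells that signal to them through a small set of secreted factors and receptors. The transcripts examined here were those of 10 such genes, Kit, Kitl, Gdnf, Gfra1, Ret, Fgf2, Etv5, Cxcl12, Cxcr4 and Csf1, chosen by name from the KIT, GDNF, FGF, CXCL12 and CSF1 signals. They were represented by 22 of the 45281 probes on the array, and a probe was kept where its detection p, the chance that a spot without target gives as high a signal, was under 0.05 in at least 2 of 5 mice. By that rule 11 of the 22 probes and 7 of the 10 genes were measured, of 20554 probes and 11601 genes measured in all. Total testis RNA had been hybridised to 6 Illumina bead arrays of 1 colour. The JQ1 group was 3 male mice of strain C57/129, C57BL6/J/129S5 hybrids per the methods, that received JQ1, a small-molecule inhibitor of the BET bromodomain proteins, by daily injection of 50 mg/kg for 6 weeks, between 6 weeks and 12 weeks of age. The Control group was 2 male mice of that strain and age given vehicle on the same schedule. RNA of Control mouse 1 was run on 2 arrays, a technical pair that was averaged into 1 sample, so the comparison was of 3 JQ1 mice against 2 Control mice. Its p-values rest on the spread between these 5 animals at a probe, pooled by limma with the spread of all kept probes.

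In the testis, Sertoli and peritubular cells release GDNF, which acts through the co-receptor GFRA1 and the receptor tyrosine kinase RET on undifferentiated spermatogonia and maintains stem cell self-renewal. FGF2 acts on the same cells, and ETV5 is a transcription factor induced by both signals. KIT ligand, the product of Kitl, is made by Sertoli cells and drives differentiating spermatogonia through the receptor tyrosine kinase KIT, which Leydig cells and mast cells also carry. CXCL12 is a chemokine of Sertoli and stromal cells that retains CXCR4-bearing cells, among them undifferentiated spermatogonia and leukocytes, and CSF1 is a cytokine of Leydig and peritubular cells whose receptor is best known on macrophages. In RNA of a whole testis, fewer cells of a type and less RNA per cell cannot be told apart, and a shift in the share of the other cells moves every transcript of a type together. The libraries carried the markers of testis germ cells at high signal. Prm1, the protamine of spermatids, had log2 signals of 14.67, 14.59 and 14.57 in JQ1 mice and 14.59 and 14.71 in Control mice, and the spermatocyte lactate dehydrogenase Ldhc had 14.97 in each of the JQ1 mice and 15.14 and 15.02 in Control mice. The normalization gives probes of equal rank on their arrays the same signal, so the identical Ldhc values are not a measured agreement between mice.

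The 4 genes that passed the test, Kit, Gdnf, Cxcl12 and Cxcr4, lie on different chromosomes. The 250 bases before the annotated start of each are shown because these are the members called higher, as RefSeq gives them for build GRCm38.p6, 5′ to 3′ on the gene's own strand. All 4 had an entry in that table. Capitals mark the motifs that were searched on both strands, which were the E-box with the letters CANNTG, the GC box with the letters GGGCGG and the TATA box with the letters TATAAA. Where a gene has several annotated starts the most upstream was taken. The windows are chr5:75574737-75574986 (plus strand) for Kit, chr15:7809798-7810047 (plus strand) for Gdnf, chr6:117168285-117168534 (plus strand) for Cxcl12 and chr1:128592300-128592549 (minus strand) for Cxcr4.
Kit: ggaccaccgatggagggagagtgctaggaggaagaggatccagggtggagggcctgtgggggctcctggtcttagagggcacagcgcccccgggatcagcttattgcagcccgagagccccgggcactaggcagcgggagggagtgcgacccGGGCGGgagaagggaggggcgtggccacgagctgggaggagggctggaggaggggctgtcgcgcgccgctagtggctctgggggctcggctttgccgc
Gdnf: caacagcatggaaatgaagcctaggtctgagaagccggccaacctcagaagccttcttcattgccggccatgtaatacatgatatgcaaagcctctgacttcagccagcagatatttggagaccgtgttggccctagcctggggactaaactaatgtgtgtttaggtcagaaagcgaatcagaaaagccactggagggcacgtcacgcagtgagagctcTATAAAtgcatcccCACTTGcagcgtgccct
Cxcl12: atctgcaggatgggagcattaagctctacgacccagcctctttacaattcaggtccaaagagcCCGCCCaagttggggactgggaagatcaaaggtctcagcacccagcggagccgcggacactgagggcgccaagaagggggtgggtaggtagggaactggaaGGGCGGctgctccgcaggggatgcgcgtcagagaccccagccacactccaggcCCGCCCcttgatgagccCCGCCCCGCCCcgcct
Cxcr4: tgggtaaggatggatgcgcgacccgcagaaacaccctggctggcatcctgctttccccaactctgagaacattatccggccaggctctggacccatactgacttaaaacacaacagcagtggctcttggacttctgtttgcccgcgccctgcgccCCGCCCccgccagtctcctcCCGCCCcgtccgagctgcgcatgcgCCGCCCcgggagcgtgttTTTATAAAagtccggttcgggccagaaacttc

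No motif was found in all 4 windows. Those of Kit, Cxcl12 and Cxcr4 held 1, 5 and 3 GC boxes, a motif present in 32.9% of the 27025 promoter windows of the same length, and that of Gdnf held none. The last GC box of Cxcl12 overlapped the one before it. Gdnf had a TATA box and Cxcr4 had a TATA box on each strand, overlapping each other, against 13.0% of all windows with this motif. An E-box was found for Gdnf alone, against 66.0% of all windows. The base composition was 70.8% G and C for Kit, 50.8% for Gdnf, 64.4% for Cxcl12 and 61.2% for Cxcr4, where the median window had 52.0%. These matches describe the letters of each window, and the arrays carry no measure of what binds there.

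Of the 10 genes, 4 were detected in all 5 mice, Kit, Cxcr4, Cxcl12 and Etv5. The other measured genes, Gdnf, Kitl and Csf1, were kept only through their detection in JQ1 mice, the group in which they were higher, so that no count over the 7 measured genes bears on a direction. Kit, Cxcr4 and Cxcl12 were higher in JQ1 testes at an adjusted p under 0.05 (limma with Benjamini-Hochberg adjustment over all kept probes) and Etv5 did not pass. Gdnf also passed, with a Control signal below detection in both mice. None was lower, also at an unadjusted p under 0.05. Over all 11601 genes measured, 25.3% passed as higher and 21.8% as lower. With detection required in all 5 mice, 3 of the 4 members and 26.9% of all 9585 genes passed as higher. In those 4, every JQ1 mouse lay above both Control mice, which held for 34.4% of the 11601 genes. Only Kit also reached 2-fold, a size passed upwards by 8.53% of all genes, and it stood close to that line. No member reached it without Control mouse 1 or without JQ1 mouse 3, and 2 members, Kit and Cxcr4, did so without Control mouse 2 or without JQ1 mouse 1. With any 1 of the 5 mice left out, 3 members were called higher, Kit and Cxcr4 in each case with either Gdnf or Cxcl12. The other 3 of the 10 genes were not measured. Gfra1, Ret and Fgf2 were not detected on any of the 6 arrays, with detection p between 0.208 and 0.957 for the Gfra1 probe, between 0.0694 and 0.947 over the 3 Ret probes and between 0.519 and 0.947 for the Fgf2 probe. Detection therefore decided which signals could be followed, and the GDNF receptor complex was not among them.

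**Figure D1:**
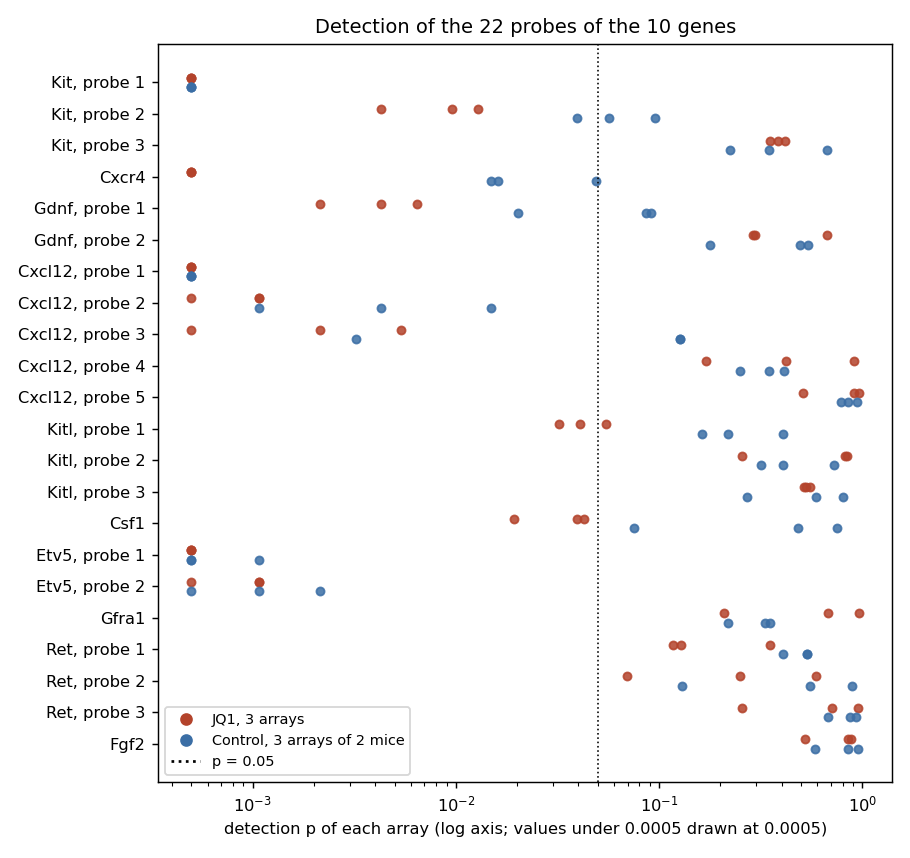
Detection p of each of the 22 probes on each array (log axis, values under 0.0005 drawn at 0.0005), with JQ1 arrays in red above Control arrays in blue and the dotted line at 0.05. All Gfra1, Ret and Fgf2 points lie right of the line, and the brightest Kit and Cxcl12 probes lie at its far left on all 6 arrays. The kept Gdnf, Kitl and Csf1 probes have JQ1 points left of the line, except Kitl in JQ1 mouse 3 (0.05449), and Control points mostly right of it. The other Gdnf and Kitl probes lie right of it on all arrays.

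The receptors come first. Kit, the receptor of KIT ligand, was measured by probe ILMN_1246876, which gave log2 signals of 9.00, 9.17 and 9.42 in JQ1 mice 1, 2 and 3 against 8.13 and 8.22 in Control mice 1 and 2. The groups were well apart, and the lowest JQ1 mouse exceeded the higher Control mouse by more than the whole range within either group. Kit was 2.03-fold higher in JQ1 testes, a log2 difference of 1.02 (SE 0.15, 95% interval 0.70 to 1.34, adjusted p = 5.19e-05, limma). The raw intensity of this probe spanned 538.5 to 744.1 on JQ1 arrays and 321.2 to 460.8 on Control arrays, so the order of the groups was already present before correction. A dimmer Kit probe, ILMN_1216898, was detected in all 3 JQ1 mice at 5.54, 5.75 and 5.44 and in neither Control mouse at 5.21 and 5.20, although 1 of the 3 Control arrays passed. Its difference of 0.37 had an interval of -0.05 to 0.78 (adjusted p = 0.138, limma). It pointed the same way near the detection limit, and the third Kit probe was not detected on any array.

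Cxcr4, the chemokine receptor for CXCL12, was detected in all 5 mice by its only probe, ILMN_2630459, with log2 signals of 6.40, 6.58 and 6.66 in JQ1 mice and 5.47 and 5.66 in Control mice. All 3 JQ1 mice lay above both Control mice, with a narrow spread in each group (SD 0.13 in both). Cxcr4 was 1.98-fold higher in JQ1 testes (log2 difference 0.98, SE 0.19, adjusted p = 0.000385, limma). Its signal in Control mice was close to the limit of detection, with a detection p of up to 0.04915 on a Control array. The raw intensities were 159.3, 175.4 and 183.6 on the JQ1 arrays and 175.6, 132.1 and 120.0 on the Control arrays, the first of these from the brightest array as a whole, whose median over all probes was 142.2, against medians of 101.8 to 121.5 on the other 5. That array alone overlapped the JQ1 arrays before the adjustment for overall brightness. The size of the change depended on the treatment of background, with a log2 difference of 0.43 on signals without background correction and 1.33 on the authors' normalized values. Cxcr4 and Kit passed the test under all 16 alternatives tried.

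Among the ligands, Cxcl12 was the one detected in every mouse. Its brightest probe, ILMN_2658908, had log2 signals of 8.07, 8.56 and 8.87 in JQ1 mice and 7.73 and 8.02 in Control mice. The groups did not overlap, but JQ1 mouse 1 lay only just above Control mouse 2, and the JQ1 mice varied more among themselves (SD 0.40) than did the Control mice (SD 0.21). The raw intensities were 324.1, 447.8 and 542.9 on the JQ1 arrays and 363.2, 338.2 and 289.4 on the Control arrays. JQ1 mouse 1 thus lay below both arrays of Control mouse 1 before the adjustment for array brightness, and the full separation came with it. Cxcl12 was 1.54-fold higher (log2 difference 0.62, SE 0.20, adjusted p = 0.0157, limma). The call was lost without Control mouse 1 (log2 difference 0.47, adjusted p = 0.151), without JQ1 mouse 2 (0.59, adjusted p = 0.0569) and without JQ1 mouse 3 (0.44, adjusted p = 0.0884). A further pair of Cxcl12 probes was kept. The first gave 6.21, 6.46 and 6.32 in JQ1 mice and 5.87 and 6.23 in Control mice, a difference of 0.28 (adjusted p = 0.244), and the second gave 5.65, 6.19 and 6.01 in JQ1 mice and 4.91 and 6.06 in Control mice, a difference of 0.46 (adjusted p = 0.168). Both overlapped between the groups and neither passed, and with the mean of the 3 kept probes in place of the brightest the gene no longer passed (0.45, adjusted p = 0.0767).

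Gdnf, the stem cell self-renewal factor, was near the floor of the assay. Probe ILMN_2659994 gave log2 signals of 5.95, 5.67 and 5.62 in JQ1 mice and 5.27 and 5.03 in Control mice, and the lowest detected signal on the 6 arrays was between 5.05 and 5.34. It was detected in all 3 JQ1 mice and in neither Control mouse, although the second array of Control mouse 1 passed alone. The fitted log2 difference was 0.60 (SE 0.20, adjusted p = 0.0219, limma). It is set against a Control signal that was not above background in either mouse, so that its size is not fixed and no fold is given. It was 0.22 on signals without background correction and 1.06 on the authors' normalized values. Before normalization the JQ1 arrays had raw intensities of 138.5, 129.6 and 129.6 and the Control arrays 149.9, 141.2 and 105.2, so that here too the order of the groups came with the adjustment for array brightness. The call was lost without JQ1 mouse 1 (0.49, adjusted p = 0.0667), without Control mouse 2 (0.49, adjusted p = 0.138), with the second array of Control mouse 1 alone (0.50, adjusted p = 0.0613) and with no filter on dim probes, which adjusts over more probes (adjusted p = 0.0748). Gdnf was above background in JQ1 testes and at its edge in Control testes. A second Gdnf probe was not detected on any array.

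Kitl and Csf1 were detected in JQ1 mice alone and did not pass the test. Kitl, the ligand of KIT, had log2 signals of 5.17, 5.13 and 5.04 in JQ1 mice, where it was detected in mice 1 and 2, and 4.71 and 4.86 in Control mice, where no array detected it. Csf1 had 5.19, 5.08 and 5.33 in JQ1 mice, all detected, and 4.54 and 5.09 in Control mice, detected on no array. The Kitl values did not overlap between the groups, and the Csf1 values of JQ1 mouse 2 and Control mouse 2 crossed. With the Control side below detection, no fold is given for either, since the bound against the lowest detected signal was under 1. The fitted log2 differences were 0.32 for Kitl (interval -0.10 to 0.74, adjusted p = 0.197, limma) and 0.38 for Csf1 (interval -0.07 to 0.84, adjusted p = 0.158, limma). The intervals leave room for no change and for a change as large as that of Cxcl12. The Csf1 difference was 0.11 without Control mouse 1 and 0.68 without Control mouse 2, and on the authors' normalized values it was 2.30 for Csf1 and 1.79 for Kitl. Authors' values under 1 were set to 1 before log2. In Control mouse 1 this covered both arrays for Csf1 (-7.4 and -1.1) and the first array for Kitl (0.8). The differences of 2.30 and 1.79 thus depend on that floor and do not measure a size. On signals without background correction the differences were 0.18 for Csf1 and 0.14 for Kitl. The other Kitl probes, 2 in number, were not detected on any array.

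Etv5, the transcription factor downstream of GDNF and FGF, was well detected and did not pass. Its brighter probe gave log2 signals of 7.01, 7.01 and 7.28 in JQ1 mice and 6.70 and 6.94 in Control mice, which did not overlap, and the difference was 0.29 (interval -0.08 to 0.66, adjusted p = 0.197, limma). Its other probe gave 6.15, 6.07 and 6.74 in JQ1 mice and 6.55 and 6.11 in Control mice, with the Control values inside the JQ1 range and a difference of -0.01 (interval -0.47 to 0.45, adjusted p = 0.971, limma). A 2-fold rise of Etv5 lay outside both intervals.

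**Figure D2:**
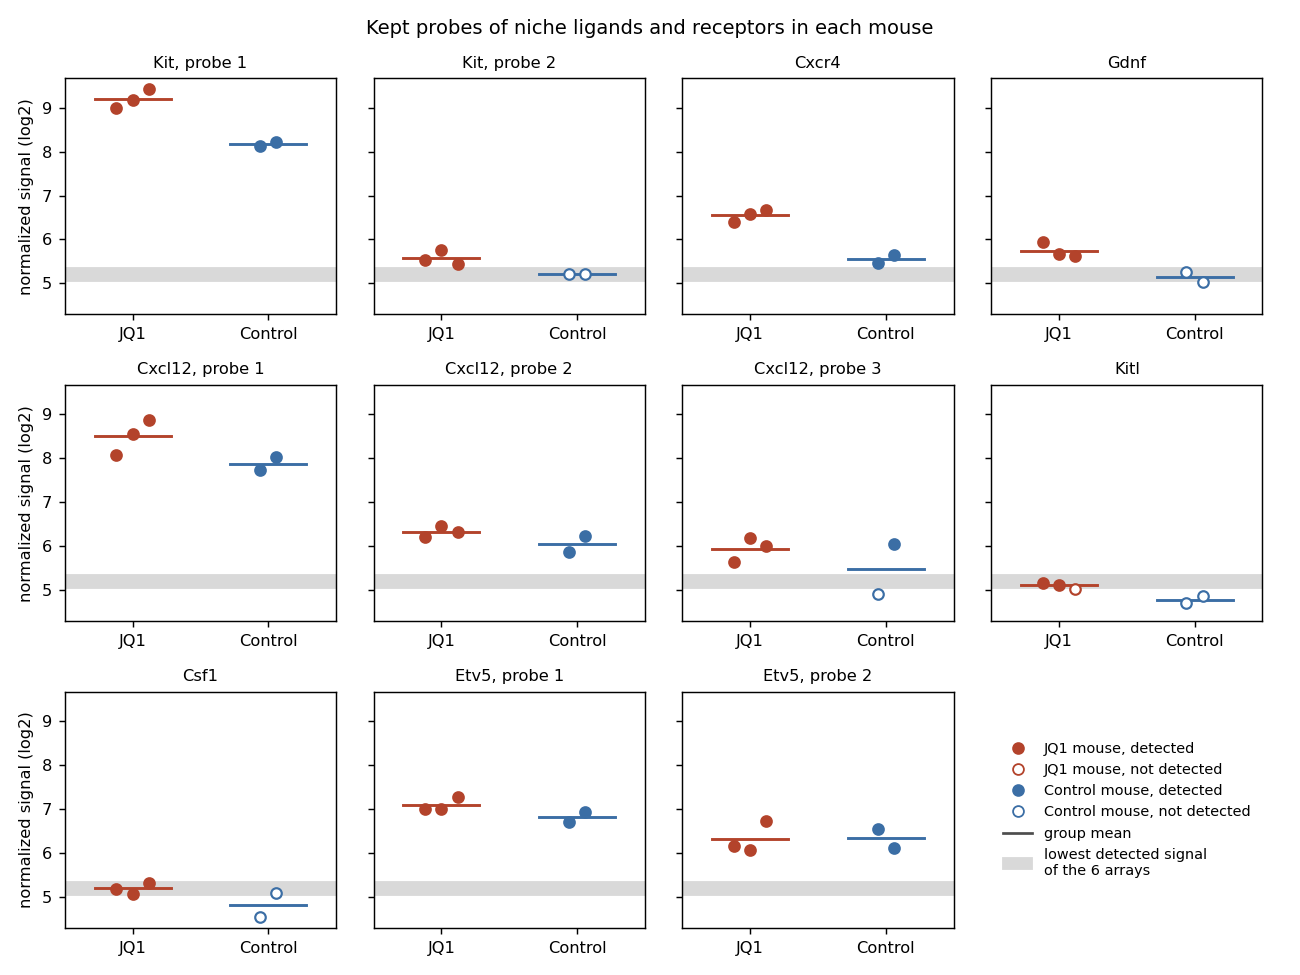
Normalized log2 signal of each of the 11 kept probes in the 3 JQ1 mice (red, left) and 2 Control mice (blue, right), where open circles are mice without detection, bars are group means and the grey band spans the lowest detected signal of the 6 arrays (5.05 to 5.34). The brightest Kit probe and the Cxcr4 probe separate the groups by about 1 log2 unit, and the Control values of Gdnf, Kitl and Csf1 lie in or under the band.

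The rule called for somatic ligands to be set beside germ cell receptors, and for most pairs the arrays held only a single side. For KIT the receptor was higher and its ligand was not detected in Control mice. For GDNF the ligand was detected in JQ1 mice while Gfra1 and Ret were not detected, and for FGF2 neither the ligand nor Fgfr1 was. Cxcl12 and Cxcr4 were the only pair of 6 with both sides measured in both groups. The log2 change of the ligand was smaller than that of the receptor by 0.36 (ligand minus receptor -0.36), and an exact two-sided permutation test over the 5 mice gave p = 0.2, where 3 mice against 2 cannot go below 0.1. Every JQ1 mouse lay below both Control mice in this measure, and the test could not have passed at this number of mice, so that it does not settle whether the changes differ. The difference turned to 0.052 on signals without background correction.

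Partners of these genes were read in the same way. Fgfr2, a receptor of the FGF family, had log2 signals of 7.77, 7.89 and 8.24 in JQ1 mice and 6.81 and 6.80 in Control mice by its only kept probe, and was 2.23-fold higher (log2 difference 1.16, adjusted p = 4.97e-05, limma). Dusp6, a phosphatase that is induced by and damps ERK signals, had 8.54, 8.54 and 8.77 in JQ1 mice and 7.81 and 7.80 in Control mice, and was 1.76-fold higher (0.81, adjusted p = 0.000327, limma), while a dimmer Dusp6 probe did not pass (0.40, adjusted p = 0.115). For Fgfr2 and the brighter Dusp6 probe, the lowest JQ1 mouse exceeded the higher Control mouse by more than the range within either group. Csf1r, the CSF1 receptor, had 6.80, 6.95 and 6.94 in JQ1 mice and 6.04 and 6.35 in Control mice, and was 1.63-fold higher (0.70, adjusted p = 0.00419, limma), so that the receptor passed where the ligand did not. Lhx1, a GDNF-responsive transcription factor of spermatogonia, had 6.57, 6.55 and 6.57 in JQ1 mice and 6.99 and 6.90 in Control mice, a difference of -0.38 that did not pass (adjusted p = 0.0784, limma). Among the partners with a kept probe, Lhx1 was the only one whose JQ1 values all lay below the Control values. Fgfr1, Fgfr3, the alternative CSF1R ligand Il34 and the alternative CXCL12 receptor Ackr3 were not detected on any array, and Gfra2 and Spry4 were detected on 1 array each.

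**Figure D3:**
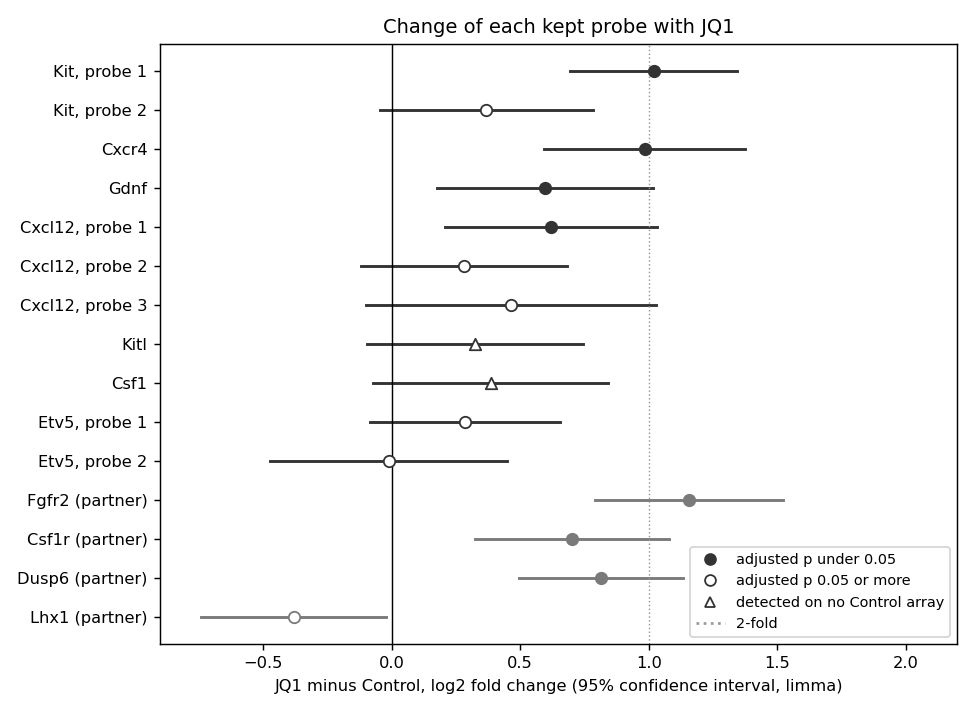
Log2 fold change, JQ1 minus Control, with its 95% confidence interval from limma for each kept probe of the 10 genes (dark) and for the brightest probe of each measured partner (grey), where filled symbols passed an adjusted p of 0.05, triangles were detected on no Control array and the dotted line is 2-fold. The brightest Kit (1.02) and Cxcl12 (0.62) probes lie clear of 0. So do Cxcr4 (0.98) and Gdnf (0.60, not above background in either Control mouse). The intervals of Kitl, Csf1 and Etv5 cross 0, as do those of the dimmer Kit and Cxcl12 probes.

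The wider pathways were mixed in direction. Counts in this and the next lists stand beside the 25.3% of all genes called higher and the 21.8% called lower. Of the 13 measured genes of the KIT pathway 6 passed as higher, 1 as lower and 6 in neither direction, with a median log2 difference of 0.32. Ptpn11, the phosphatase SHP2 that couples receptor tyrosine kinases to RAS, was 2.45-fold higher (1.30, adjusted p = 1.89e-06, limma), while the ubiquitin ligase gene Cbl, which removes activated KIT, fell by 0.52 on the log2 scale (adjusted p = 0.032, limma). With genes undetected in a group held at their bound, or at 0 where the bound was under 1, the list's median was 0.00. Without Kit and Kitl it was -0.07, with or without bounds.

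Of the 11 measured genes of the GDNF pathway 4 passed as higher, 2 as lower and 5 in neither direction (median -0.001). Fyn, a SRC family kinase, was higher in JQ1 testes (adjusted p = 4.53e-05, limma) but detected on no Control array, and was at least 1.81-fold higher against the lowest detected signal. Ncam1, an adhesion molecule that can serve as a GDNF receptor without RET, fell by 1.36 on the log2 scale (adjusted p = 3.95e-05), with signals of 5.08, 4.98 and 5.40 in JQ1 mice against 6.45 and 6.57 in Control mice. Gfra4, the co-receptor for persephin, fell by 0.89 (adjusted p = 0.00329), with 5.40, 5.80 and 5.04 in JQ1 mice against 6.24 and 6.36 in Control mice. Both lower genes were thus receptors at the cell surface. Of the 3 JQ1 mice, Ncam1 was detected in 1 and Gfra4 in 2, so that the sizes of these falls are not fixed.

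Among 10 measured genes that GDNF is known to regulate in spermatogonia, limma called 2 higher and 0 lower and left 8 uncalled (median 0.34, or 0.22 with bounds). At an unadjusted p under 0.05 the counts were 4 higher and 1 lower. The higher ones were Cxcr4 and Tspan8, a tetraspanin of stem spermatogonia, which was 2.42-fold higher (1.28, adjusted p = 2.91e-05, limma). Id4, a repressor that marks stem spermatogonia, had 8.14, 7.86 and 8.22 in JQ1 mice and 7.60 and 8.27 in Control mice, a difference of 0.14 that did not pass (adjusted p = 0.574, limma). That count of 2 in 10 was no more than the 25.3% of all genes called higher.

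The FGF list had 7 of its 25 genes measured, and none of the ligands Fgf4, Fgf5, Fgf7, Fgf8, Fgf9, Fgf10 and Fgf18 was among them. Of the 7, 3 were higher (Fgfr2, Dusp6 and Spred1), 1 lower and 3 uncalled (median 0.39, or 0.29 with bounds). Spred1, an inhibitor of RAS activation, was 2.13-fold higher (1.09, adjusted p = 0.000102, limma), and Il17rd, a membrane inhibitor of FGF signals, fell by 0.75 (adjusted p = 0.0138). Of the 6 CXCL12 genes measured 4 were higher (median 0.64), among them Gnai2, the inhibitory G protein subunit to which CXCR4 couples, at 2.17-fold (1.12, adjusted p = 6.09e-06, limma). Of the 4 CSF1 genes measured only Csf1r passed (median 0.23, or 0.04 with bounds), and Csf2ra, a receptor subunit for a related cytokine, did not (-0.21, adjusted p = 0.37).

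Of 18 further niche ligands and receptors that were measured, limma called 10 higher and 1 lower and left 7 uncalled (median 0.55), beside 25.3% higher and 21.8% lower over all genes. Igf1r, the IGF1 receptor, was 3.46-fold higher (1.79, adjusted p = 2.34e-07, limma), with 8.33, 8.40 and 8.37 in JQ1 mice against 6.57 in both Control mice. The Sertoli cell ligand Wnt6 was 2.96-fold higher (1.56, adjusted p = 1.5e-06), the receptor Notch1 2.76-fold higher (1.46, adjusted p = 7.38e-06) and the angiogenic factor Vegfa 2.59-fold higher (1.37, adjusted p = 6.7e-05), the last detected in only 1 of the 2 Control mice. Each of these had a larger fitted change than any member. Bmp7, a BMP ligand, was the lower gene and fell by 0.52 (adjusted p = 0.0381). Over all the pathway lists together, 67 genes were measured, with 29 called higher, 5 called lower (Cbl, Bmp7, Il17rd, Gfra4 and Ncam1) and 33 uncalled. Without the members the counts were 25, 5 and 30 of 60, with a median of 0.39, or 0.29 with bounds. Among the genes called higher, Fyn, Foxo3, Wnt5a and Gdnf were detected in no Control mouse and were kept only through JQ1 mice. As for the members, these counts and medians therefore do not bear on a direction. The lower genes were counted as 2 without JQ1 mouse 2 and as 3 without Control mouse 2.

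Markers of the cells that make and receive these signals moved as well. Their counts stand beside the 25.3% of all genes called higher, 8.53% higher and past 2-fold, and 21.8% called lower. Of 13 Sertoli cell markers measured, 12 were higher with a fitted change past 2-fold (median 1.34), led by the transcription factor Sox9 (3.23-fold), the filament gene Vim (3.03-fold), the androgen-binding globulin Shbg (2.96-fold) and the tight junction gene Cldn11 (2.77-fold). Their summed linear signal was 35199.7 to 42776 in JQ1 mice and 14112 to 15612 in Control mice, and Wt1, Gata4 and Amh were among the Sertoli markers not measured. Of the 12, Gata1 was detected on no Control array and was at least 1.62-fold higher against the lowest detected signal, so that 2-fold is not shown for it. All 6 measured Leydig cell markers were higher (median 1.15), with Hsd17b3, the enzyme of the last step to testosterone, at 3.58-fold, Fabp3 at 3.48-fold, the cholesterol transporter Star at 2.23-fold and the hormone gene Insl3 at 2.21-fold. Their sum was 23944 to 34216 in JQ1 mice and 10835 to 12487 in Control mice. Hsd17b3 and Star were each detected in only 1 Control mouse, so that the sizes of their folds are not fixed. The sums are weighted towards the brightest genes, Aard and Cldn11 for Sertoli cells and Insl3 for Leydig cells. They do not stand for the other markers of these lists.

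Of 11 peritubular and stromal markers 6 were higher and 1 was lower (median 0.69), with Pdgfra at 2.99-fold, Dcn at 2.62-fold, Myl9 at 2.50-fold and smooth muscle actin, Acta2, at 2.23-fold (sums 14515 to 17177 in JQ1 mice and 9866 to 11697 in Control mice). The lower one was Actg2 (-0.43, adjusted p = 0.0092, limma), and Col1a1, Col1a2, Col3a1 and Des did not pass. Of 9 macrophage markers 7 were higher (median 0.84), with Lyz2 at 2.64-fold, Cd14 at 2.57-fold and the complement gene C1qc at 2.12-fold (sums 5316 to 6486 in JQ1 mice and 4454 to 4816 in Control mice), and Cd68, Cd163 and Itgam were among those not measured. Adgre1 (0.39, adjusted p = 0.219, limma) and Aif1, the brightest of the 9 (-0.13, adjusted p = 0.39, limma), did not pass. Aif1 thus weighed most in the sum, which does not stand for the other macrophage markers. Cd14 was detected in only 1 Control mouse. Csf1r is itself in the macrophage list. Of 9 endothelial markers 2 were higher (median 0.21, or 0.13 with bounds, sums 1120 to 1175 in JQ1 mice and 890.1 to 1041 in Control mice). In each of these lists but the endothelial one, more than 1 in 2 of the measured markers rose.

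Germ cell markers were counted by stage, to be read against the 25.3% of all genes called higher and the 21.8% called lower. Of 8 markers of differentiating spermatogonia, the cells in which KIT acts, 4 were higher and 0 lower by limma (5 and 0 at an unadjusted p under 0.05, median 0.46), with Taf7l at 1.54-fold and Sohlh1, a regulator of spermatogonial differentiation, at 1.36-fold, and their sum was 2468 to 3083 in JQ1 mice and 1754 to 1793 in Control mice. Of 12 markers of undifferentiated spermatogonia 3 passed as higher, 2 as lower and 7 in neither direction (median 0.17, or 0.00 with bounds), and their sum was 4302 to 4931 in JQ1 mice and 4811 to 5111 in Control mice. Most of this sum came from Bmi1 alone, with log2 signals of 11.70, 11.36 and 11.58 in JQ1 mice and 11.89 and 11.93 in Control mice. The sum therefore does not stand for the other markers of the list. Adgra3, a surface marker of these cells, was 2.24-fold higher, while the polycomb gene Bmi1 and the pluripotency factor gene Pou5f1 fell by 0.37 and 0.51 on the log2 scale. Nanos2, Nanos3, Lin28a and Pax7 were among those not measured. Of 10 spermatocyte markers 0 were higher and 5 lower by limma, also at an unadjusted p under 0.05 (median -0.34, sums 60292.5 to 63096 in JQ1 mice and 73095 to 76262 in Control mice), and of 11 spermatid markers 0 were higher and 1 lower, again at either p (median -0.10, sums 100832 to 108058 in JQ1 mice and 108090 to 110367 in Control mice). The spermatocyte sum is weighted towards its brightest gene, Ldhc, which did not pass (-0.11, adjusted p = 0.418, limma). The part of these marker shifts in the changes of the niche genes was not tested.

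**Figure D4:**
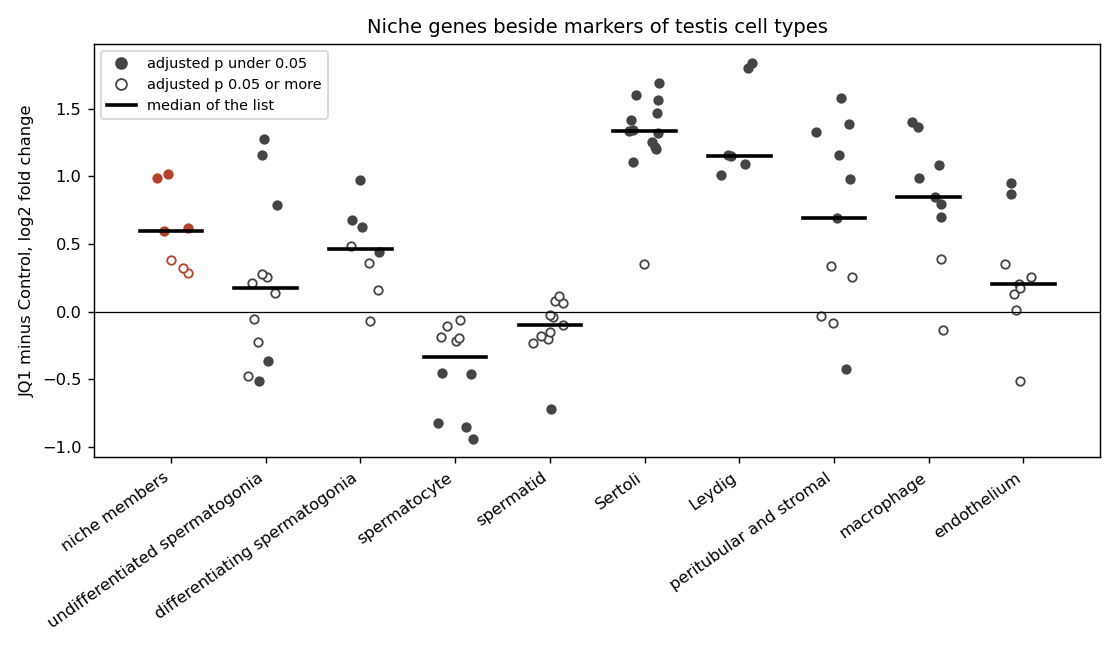
Log2 fold change, JQ1 minus Control, of the 7 measured niche genes (red) and of the measured markers of 9 testis cell types, where each circle is a gene, filled circles passed an adjusted p of 0.05 and bars are list medians. The niche genes span 0.29 to 1.02, 3 of them (Gdnf, Kitl and Csf1) with an undetected Control side, and the list medians are highest for Sertoli (1.34) and Leydig (1.15) markers and lowest for spermatocyte (-0.34) and spermatid (-0.10) markers.

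The genes whose signals ran most like those of Kit over the 5 mice, each centred on its own mean, were Ap2m1, a subunit of the clathrin adaptor AP-2, Itprid2 and Pros1, which encodes protein S. Their mean absolute differences from Kit were 0.009, 0.015 and 0.023 on the log2 scale. This likeness is over 5 mice in 2 groups, and 340 genes lay within 0.1 of Kit, so that Kit shared its profile with many transcripts.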

How the data were processed

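Total testis RNA of 3 JQ1 and 2 Control mice was measured on 6 bead arrays. For every array, the authors deposited a raw probe intensity (linear scale) together with a detection p-value, and an intensity they had processed by background subtraction and normalization, in an order that the sources read here do not state. The processed intensity holds values below 0 and served as an alternative, with values under 1 set to 1 before log2. The raw intensity was read into R 4.3.3 and corrected with limma 3.58.1 by normexp, where negative controls were derived from detection p-values and 16 was added as offset, which makes differences of dim probes smaller. Quantile normalization and log2 followed. The array number limits the precision.

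The mean p of its 2 arrays decided detection in Control mouse 1. These arrays differed by an SD of 0.27, and the Control mice by 0.32. Moderated linear models (lmFit, eBayes with an intensity trend) used the 20554 kept probes, with Benjamini-Hochberg adjustment. A gene stands by its brightest kept probe. For a probe detected on no array of a group, the bound sets the other group's mean against the lowest detected signal. Symbols are those of the platform annotation (34885 probes with 1 symbol, 18 with several, 10378 with none), and gene IDs changed 0 of them. Levels of different probes were set side by side only to find the brightest probes or genes and in the summed signals of marker lists. All sample columns were assigned.

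The members and lists were chosen with earlier results of these data known. Named genes are the members, set partners, up to 4 genes of each list past 2-fold by size (the 2 brightest where fewer than 2 were), and the 3 genes most like a member past 2-fold. Cbl, Gfra4, Il17rd, Bmp7, Bmi1, Pou5f1, Foxo3, Wnt5a, Gata1, Actg2, Col1a1, Col1a2, Col3a1, Des, Adgre1 and Aif1 were added after their values were seen. The fit was tested on simulated data. Alternatives covered background, normalization, detection filter, moderation, technical pair, choice of probe, each mouse left out, and the replicate number as a block.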

Additional observations from a re-analysis of the deposited data

How the results depend on the processing

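The count of members called higher was 3 or 4 and the count called lower 0 under all 16 alternatives. Kit and Cxcr4 passed in 16 of 16, Cxcl12 in 12 of 16 and Gdnf in 11 of the 15 that tested it, and Etv5, Csf1 and Kitl in none. The count past 2-fold was 1 as reported, 0 without background correction, with the first array of Control mouse 1 alone and with the mean of a gene's probes, 2 with cyclic loess and with the second array alone, 3 on the authors' normalized values, and between 0 and 2 with a mouse left out. Labels number the mice, but only 2 pairs share a number and their deviations correlated at 0.15 and 0.02, so the mice were not taken as paired; with the replicate block 4 members were higher and 0 past 2-fold. The pathway genes called lower numbered 5 as reported, 3 with cyclic loess and with detection required in all 5 mice, and 2 to 5 with a mouse left out. The Cxcl12 minus Cxcr4 difference of -0.36 was 0.052 without background correction, -0.67 on the authors' values and between -0.48 and -0.22 with a mouse left out. The cause of these shifts was not tested. Leaving out a Control mouse leaves 1, which is assumed to vary like the JQ1 mice. Signal near background limits Gdnf, Kitl, Csf1 and the second probe of Kit, and 3 of the 10 genes gave no level.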
